A study of Danio rerio with 80 samples.

Results

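The brains of 8 adult female zebrafish exposed early in life to the higher of 2 amounts of perfluorooctane sulfonic acid (PFOS) were compared with those of 8 control females. These 16 fish were chosen by their labels from a series of 80, with 1 RNA sequencing library per whole brain. PFOS70 females had been kept from 6 to 96 hours post fertilisation in 2.06 mg/L PFOS. This amount was set at 70 times a level in human blood. Control females were kept in 0.1% dimethyl sulfoxide (DMSO) for that time. The labels used here list no DMSO amount for the PFOS70 females. All 16 fish were wild-type of the AB strain, were raised in clean water afterwards, and had no contact with PFOS for months before sampling. Each group had 4 exposure replicates, numbered 3 to 6, with 2 females each. Fish of number 3 were 240 days old at sampling, those of number 4 were 233, those of number 5 were 226 and those of number 6 were 219, in both groups alike. The males of the same exposures (8 PFOS70, 8 control) and the 8 females given 0.3 mg/L PFOS (PFOS10) are brought in where they test a difference. The comparison asks whether an early exposure to PFOS left a difference in gene expression in the adult female brain.

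PFOS is a fluorinated surfactant that resists breakdown and binds to proteins and membranes. It can activate the fatty acid receptors of the PPAR family, and thyroid hormone, lipid handling and neuronal signalling are commonly studied in exposed animals. Brain tissue also carries strong rhythms. In the circadian clock, Clock and Bmal (Arntl) proteins switch on the Per, Cry and Nr1d genes, whose products switch the activators off again, and Dbp, Tef and Nfil3 factors pass the rhythm on to other genes. In zebrafish most tissues keep such a clock and set it by light directly. Immediate-early genes such as egr1, npas4a and fosab are switched on for a short time when neurons fire, so their levels depend on what a fish did shortly before sampling.

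The 16 libraries held 10.6 to 16.1 Mreads (1 Mread is 1000000 reads) assigned to the listed genes, 13.7 ± 2.1 in exposed and 12 ± 1.21 in control females (mean ± SD, n = 8 each; exact two-sided permutation test over fish, p = 0.0606). Levels are the deposited log2 normalized values. A level of 10 on the linear scale had 79.1 to 118 reads behind it. Transcripts of the mitochondrial genome took 10.5% ± 2.06 of reads in exposed and 11.6% ± 2.26 in control females (exact permutation p = 0.342). Neuronal markers were abundant in every library: snap25a, a synaptic fusion protein, lay between 6125 and 7040 in exposed and between 5695 and 7439 in control females on the linear scale. Markers of other tissues were low but uneven. The summed retina and pineal markers ranged from 5.30 to 221 in exposed and from 7.99 to 158 in control females. The summed skin and bone markers ranged from 26.9 to 80.7 in exposed fish and reached 602 in 1 control female of number 3. The eggshell gene zp2.1 and the germ cell gene ddx4, gonad markers, were each at 0 in 15 of the 16 libraries.

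No gene passed the test between exposed and control females. Of 10646 tested genes 0 (0%) had an adjusted p under 0.05 with limma's moderated test, and the smallest adjusted p was 0.973. Of the same genes 290 (2.72%) had an unadjusted p under 0.05. In 0 genes (0%) did the 8 exposed females lie apart from all 8 controls. The mean was lower in exposed females in 4958 genes (46.6%), with a median difference of 0.01 on the log2 scale over all genes. It was higher in 5688 genes, and in 6412 without number 5 (median 0.04). In males over all numbers it was higher in 6519 genes (median 0.04). Adding the number as a block again gave 0 calls, with 477 genes at an unadjusted p under 0.05. The median SD per gene between fish was 0.248 in exposed and 0.268 in control females.

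The genes with the smallest unadjusted p did not pass and are given as values. The level of ccdc85cb, which in mouse encodes a protein of the apical junctions of cortical progenitors (chromosome 20, bases 5158419 to 5229157 of the deposited GRCz11 coordinates), was 2.91 at the lowest, 3.82 at the median and 4.47 at the highest exposed female. In control females it was 2.44, 3.09 and 3.32. Of the exposed fish 7 lay above every control, and 1 of number 3 did not. The difference was 0.83 ± 0.23 (SE) with an adjusted p of 0.973, a 1.78-fold higher level, and it was positive in each of the 4 numbers (0.54, 1.21, 0.90 and 0.68 in numbers 3 to 6). In males it was 0.02 ± 0.23.

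The gene ntrk2a, a receptor for the growth factor Bdnf, had levels from 4.49 to 6.18 in exposed females with a median of 5.68, against 3.02 to 5.04 with a median of 4.26 in controls. The difference was 1.25 ± 0.39. It was 1.70, 1.05 and 2.43 in numbers 4, 5 and 6, while number 3 stood at -0.17, and 3 exposed fish, both of number 3 and 1 of number 5, lay within the range of the controls. In PFOS10 females the difference from the same controls was 1.36, and in males at the high amount 0.44. The ligand gene bdnf itself differed by 0.06 ± 0.15. The gene tab2, an adaptor that joins cytokine receptors to the kinase Tak1, had 4.69, 4.94 and 5.27 as its lowest, median and highest exposed level and 4.29, 4.61 and 4.93 in controls. Its difference was 0.37 ± 0.10, positive in all 4 numbers.

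**Figure D1:**
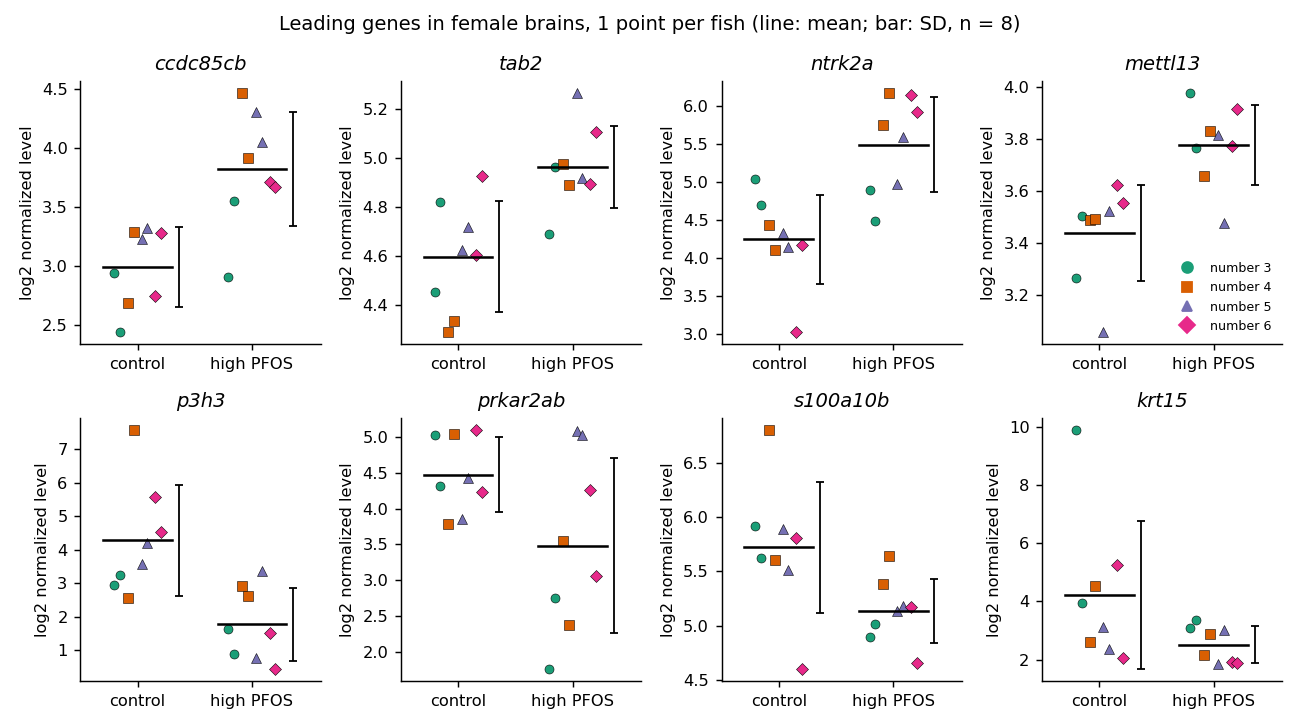
Deposited log2 level (vertical axis) of 8 genes with small unadjusted p in control and high PFOS female brains; each point is 1 fish, marked by exposure replicate number, with the mean as a line and the SD (n = 8) as a bar. In each panel the groups overlap, and for prkar2ab the 2 exposed fish of number 5 (5.02 and 5.09) sit above the other exposed fish.

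Of the other leading genes that were higher, ttbk1a, a kinase of the microtubule protein tau, differed by 0.21 ± 0.07. The eEF1A methyltransferase mettl13 differed by 0.34 ± 0.12 and the membrane skeleton protein add2 by 0.29 ± 0.10. The BMP receptor bmpr1bb differed by 0.95 ± 0.37, with -0.47 in number 3 and 2.77 in number 4. The remaining genes of the leading 12 were rabggta (0.35 ± 0.13), which lipidates Rab proteins, ppm1g (0.20 ± 0.07), a phosphatase, gtpbp10 (0.66 ± 0.25), a GTPase of the mitochondrial ribosome, the transcription factor yy1b (0.17 ± 0.06) and the growth regulator cgrrf1 (0.50 ± 0.20). None of these 12 had an adjusted p under 0.973.

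Among the leading genes that were lower, the collagen-modifying prolyl hydroxylase gene p3h3 (chromosome 16, bases 11992498 to 12006828) had the widest difference. Its exposed levels ran from 0.45 over a median of 1.58 to 3.38, and its control levels from 2.55 over 3.90 to 7.59. The difference was -2.50 ± 0.68, negative in every number (-1.82, -2.30, -1.83 and -4.08), and its groups overlapped because 3 exposed fish, of numbers 4 and 5, lay above the lowest control. As few as 11 reads stood behind the exposed values. In PFOS10 females the difference was -1.82 and in males -0.22.

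The gene prkar2ab, a regulatory subunit of protein kinase A (chromosome 22, bases 110158 to 130695), was at 1.76, 3.3 and 5.09 (lowest, median, highest) in exposed and at 3.79, 4.38 and 5.10 in control females. The fish divided by number. In numbers 3, 4 and 6 it was lower by 2.41, 1.45 and 1.01 on the log2 scale, and in number 5 it was higher by 0.91. The difference over all fish was -0.99 ± 0.31. Without number 5 it was -1.62, and prkar2ab was then the 1 gene of 10646 (0.00939%) that passed without a block (limma adjusted p = 0.0407). In males the difference was 0.04 ± 0.31 over all numbers and 0.14 ± 0.30 with the block and without number 5. The female minus male difference was -1.77 in that fit, with a 95% interval from -2.63 to -0.90 and an adjusted p of 0.9998, so the difference between the sexes did not pass.

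The annexin partner s100a10b differed by -0.59 ± 0.19 and had a lower mean in each of the 4 numbers (-0.82, -0.69, -0.54 and -0.29). Without 1 control female of number 4 it differed by -0.43. The cytokine signalling inhibitor socs3b differed by -0.44 ± 0.15. Its highest value, 5.74, came from the same control female of number 4, and without that fish the difference was -0.23. The keratin gene krt15 differed by -1.71 ± 0.59, and 1 control female of number 3 reached 9.89 where the next control reached 5.26. Without that fish, which also had the highest skin marker sum, the difference was -0.90. The others were vrk3 (-0.28 ± 0.09), a kinase-like protein, helb (-0.74 ± 0.26), a DNA helicase, syvn1 (-0.20 ± 0.07), a ubiquitin ligase of the endoplasmic reticulum, tm9sf1 (-0.29 ± 0.10), a membrane protein, phyh (-0.27 ± 0.10), an enzyme of fatty acid breakdown in peroxisomes, and 2 ribosomal protein genes, rpl22l1 (-0.41 ± 0.14) and rpl24 (-0.36 ± 0.13).

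Several clock genes differed widely within number 5, in the direction opposite to that in the other numbers. In number 5 the repressor nr1d1 (Rev-erb alpha) was at 7.92 and 7.78 in the 2 exposed females and at 3.18 and 3.36 in the 2 controls, a mean difference of 4.58 on the log2 scale. In number 3 the exposed females had 7.17 and 6.52 and the controls 6.78 and 7.49, a difference of -0.29. In number 4 the exposed females had 4.60 and 4.60 against 5.39 and 5.59 in controls, a difference of -0.89, and in number 6 they had 7.0 and 7.0 against 7.71 and 7.96, a difference of -0.84. In number 5, then, exposed fish stood far above controls, and in numbers 4 and 6 they stood below without overlap. With 2 fish per group, 46.3%, 36.7% and 61.9% of all tested genes did not overlap in numbers 4, 5 and 6.

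Other clock genes divided in the same way. The repressor gene ciarta (Chrono) had 7.20 and 6.92 in exposed and 3.0 and 2.63 in control females of number 5, a difference of 4.24, against -0.44, -1.16 and -1.02 in numbers 3, 4 and 6. The period gene per1a differed by 3.80 in number 5 and by 0.10, -0.67 and -1.04 elsewhere, per1b by 2.32 and by -0.33, -0.46 and -0.27, and per2, which light induces in zebrafish, by 1.54 and by -0.05, -0.49 and -0.26. Genes of the opposite phase had the opposite signs. The activator arntl1a (Bmal1) differed by -1.51 in number 5 and by 0.38, 0.72 and 0.33 in numbers 3, 4 and 6. The Dbp antagonist nfil3-5 differed by -2.78 in number 5 and by 0.71, 0.81 and 0.67 elsewhere.

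**Figure D2:**
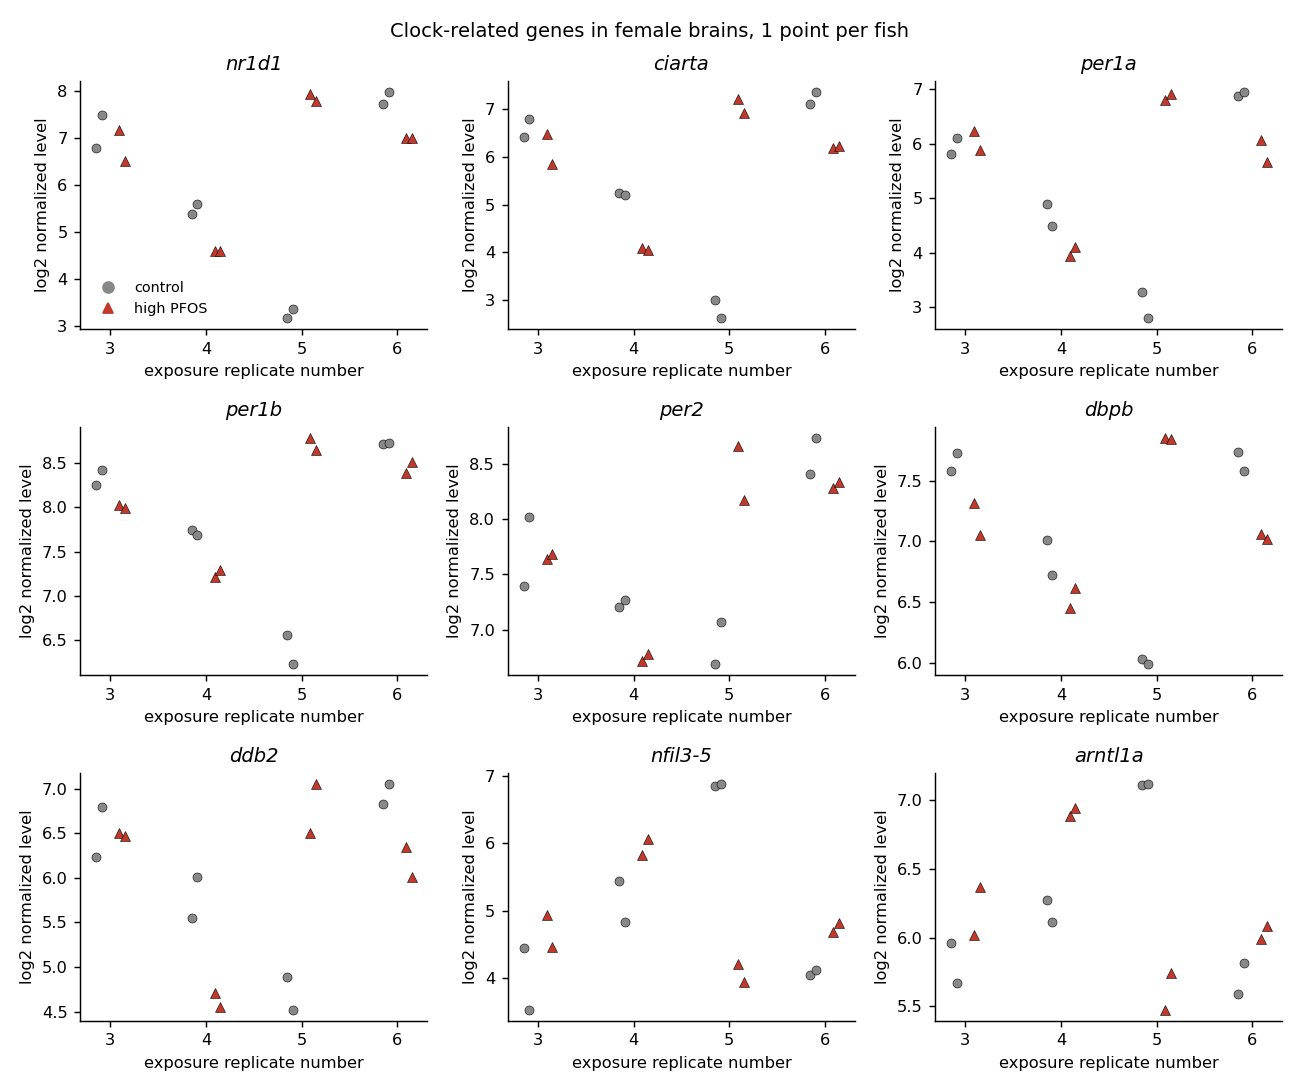
Deposited log2 level (vertical axis) of 9 clock-related genes by exposure replicate number (horizontal axis) in control (grey circles) and high PFOS (red triangles) females, 1 point per fish. In number 5 exposed fish lie above controls for nr1d1, ciarta, the period genes, dbpb and ddb2 and below them for nfil3-5 and arntl1a, and in numbers 4 and 6 the order is turned round.

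Of 34 tested clock genes in 3 lists (18 repressors, 7 activators, 9 output factors), 22 differed by more than 1 on the log2 scale in number 5, against 2.1% of all tested genes in that number. The counts were 3 in number 3, 4 in number 4 and 7 in number 6, against 3.36%, 2.5% and 11.9% of all genes. Number 5 had been singled out beforehand for its clock genes, so its count is a description and no independent test. For 16 of the 34 the sign in number 5 was opposite to that in each of the other 3 numbers. How many of all tested genes had such signs was not counted. The number 5 females of the other conditions lay near the controls: over the 8 females of number 5 outside PFOS70, the 2 controls included, nr1d1 ranged from 2.77 to 4.03 and ciarta from 2.02 to 3.27. Males of the same exposures had the females' sign in 32 of 34 clock genes, both in number 5 and without it. For nr1d1 their difference in number 5 was 3.63. The share of all genes with like signs was not counted either. The 34 genes belong to 1 rhythm, and the males share the exposure replicates and ages, so these counts are no independent support.

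**Figure D3:**
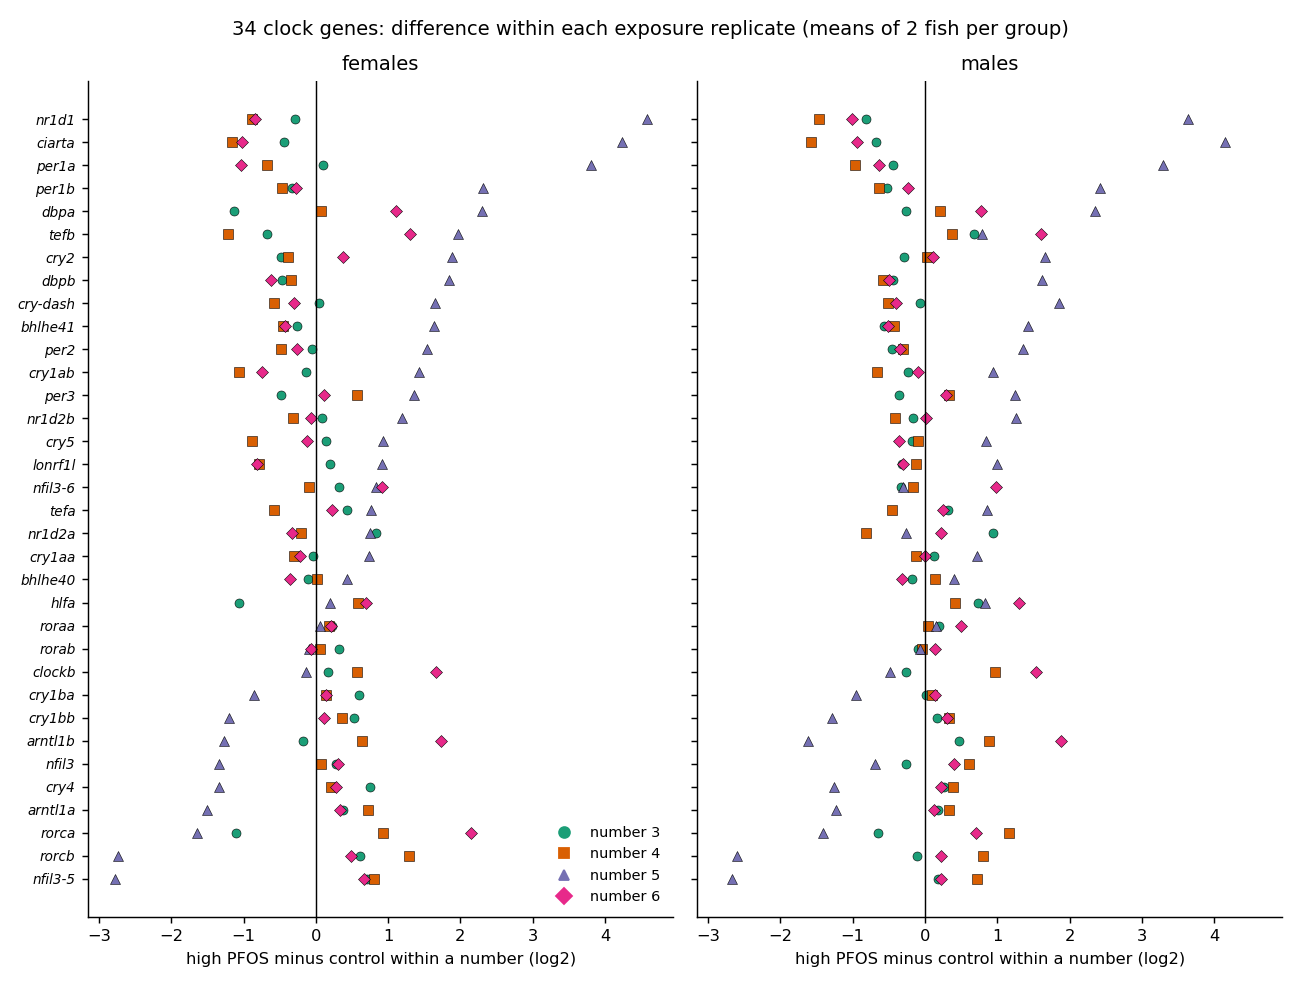
Difference of high PFOS minus control (log2, horizontal axis) within each exposure replicate for 34 clock genes (vertical axis, ordered by the value of females in number 5), females on the left and males on the right; each point is the difference of 2 means of 2 fish. The triangles of number 5 run from -2.78 for nfil3-5 to 4.58 for nr1d1 in females, and for 16 genes the other 3 numbers all lie on the other side of 0 in females.

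Over all 4 numbers, without a block, the errors were wide: 0.64 ± 0.83 for nr1d1, 0.40 ± 0.87 for ciarta, 0.10 ± 0.30 for dbpb and -0.15 ± 0.56 for nfil3-5. Without number 5 and without a block the SE was still 0.64 for nr1d1 and 0.60 for ciarta. With the number as a block as well it was 0.19 and 0.17. Number 5 was then left out because its clock genes stood apart, that is, on the same values that the calls below concern. The calls below are therefore a description of numbers 3, 4 and 6 and no independent test. With number 5 left out and the number kept as a block, 6 of 10646 genes passed (0.0564%), 5 lower and 1 higher in exposed females, and 580 (5.45%) had an unadjusted p under 0.05. Lower were the output activator dbpb by 0.47 ± 0.08 (limma adjusted p = 0.00209), ciarta by 0.87 ± 0.17 (adjusted p = 0.00737), the DNA damage recognition gene ddb2 by 0.65 ± 0.14 (adjusted p = 0.0416), prkar2ab by 1.62 ± 0.30 (adjusted p = 0.00737) and the uncharacterised gene si:ch211-132b12.7 by 0.97 ± 0.15 (adjusted p = 0.000279). Higher was nfil3-5 by 0.73 ± 0.15 (adjusted p = 0.0241). Within number 5, which was left out, si:ch211-132b12.7 was higher in exposed females by 3.75, ddb2 by 2.07 and prkar2ab by 0.91. Over all 4 numbers and without a block, si:ch211-132b12.7 differed by 0.21 ± 0.74 and ddb2 by 0.03 ± 0.44. In this fit dbpb had 6.45, 7.04 and 7.32 as its lowest, median and highest level in 6 exposed females and 6.72, 7.58 and 7.74 in 6 controls. For si:ch211-132b12.7, chosen for the text after its values were seen, the levels were 6.25, 7.78 and 8.16 in exposed and 6.90, 8.70 and 9.34 in control females. Over the 3 numbers pooled the groups of both genes overlapped, since levels differed between numbers, but within each of these numbers both exposed fish of either gene were below both controls, as in 76 of all tested genes (0.714%).

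These calls rest on 3 exposure replicates, for which an exact test over paired numbers cannot go below p = 0.25. Of the 6 genes, 0 remained without number 6, 1 without number 4 (si:ch211-132b12.7), 3 with limma voom and 0 when the 12 females were fitted alone. Without number 3, where numbers 4 and 6 were left, 718 genes passed, the 6 among them. nr1d1 (-0.67 ± 0.19, adjusted p = 0.473) and arntl1a (0.48 ± 0.13, adjusted p = 0.347) did not pass with number 5 left out. The hour of sampling is not among the labels used here, so exposure and hour of sampling cannot be told apart for these rhythmic genes.

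Males of the same exposure replicates gave 5 genes in the same fit (0.047%), all lower: nr1d1 by 1.1 ± 0.19, dbpb by 0.51 ± 0.08, ciarta by 1.07 ± 0.17, si:ch211-132b12.7 by 1.16 ± 0.15 and znf395b by 0.56. No interaction of exposure and sex passed for any gene (0 of 10646 over all numbers, 217 genes at an unadjusted p under 0.05). For dbpb the female minus male difference was 0.03 with a 95% interval from -0.20 to 0.26, and for nr1d1 0.43, from -0.11 to 0.96. In PFOS10 females, compared with the same controls in the same fit, dbpb differed by -0.29, ciarta by -0.46, si:ch211-132b12.7 by -0.82 and nfil3-5 by 0.80; the latter 2 were the genes of 10646 (0.0188%) that passed there (limma adjusted p = 0.0101 for each). The direct difference of high minus low PFOS was -0.18 for dbpb (95% interval from -0.35 to -0.02), -0.41 for ciarta, -0.15 for si:ch211-132b12.7 (from -0.44 to 0.15) and -0.08 for nfil3-5 (from -0.38 to 0.22); 0 of 10646 genes passed for it.

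No cytosolic ribosomal protein gene passed, and most had a lower mean in exposed females. Of 78 tested, 76 had a lower mean, against 46.6% of all tested genes, and the median difference was -0.23, against 0.01 over all genes. An unadjusted p under 0.05 was reached by 32, all lower, against 290 of all 10646 tested genes (2.72%) in either direction. They took 2.68% of reads at the lowest, 3.61% at the median and 4.32% at the highest exposed female, and 3.37%, 4.04% and 4.72% in controls. The groups overlapped, with the lowest values in the 2 exposed fish of number 6. The subunit gene rpl15 of the large ribosomal subunit differed by -0.24 ± 0.09, and rps27a and rps26 of the small subunit by -0.26 ± 0.10 and -0.20 ± 0.12. Lower were 67, 77, 67 and 76 of the 78 in numbers 3, 4, 5 and 6, with mean differences of -0.09, -0.27, -0.16 and -0.39. In males 75 were lower (median -0.13), and in PFOS10 females, with the same controls, 76 (median -0.21).

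The first principal component over all 80 libraries, which took 39.3% of the variance and was scaled to rise with synapse genes, was 0.08 ± 1.44 in exposed and -0.40 ± 0.72 in control females (exact permutation p = 0.412). It was higher in exposed females in number 6 (1.58 against -0.30) and number 4 (0.61 against 0.08), lower in number 3 (-1.88 against -1.25) and close in number 5 (0.02 against -0.11). With it as a covariate the ribosomal median was -0.16 and 77 of 78 were lower; after quantile normalization it was -0.20. What this component measures was not tested, and its part in the ribosomal difference was not tested further.

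Nuclear genes of oxidative phosphorylation, which build the respiratory chain, were lower in 64 of 82 with a median of -0.07. Once number 5 was left out 37 of the 82 were higher, against 6412 of all 10646 genes. In males the median was 0.11, against 0.04 over all genes. The complex I subunits ndufa6 (-0.22 ± 0.10) and ndufb7 (-0.23 ± 0.11) had the smallest unadjusted p. Of 13 transcripts of the mitochondrial genome 12 were lower (median -0.13), with mt-nd6 at -0.33 ± 0.20 and mt-cyb at -0.22 ± 0.17. After quantile normalization that median was 0.00.

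Most genes of neuronal signalling had a higher mean in exposed females, with the widest differences in number 6; none passed. Of 23 potassium and sodium channel genes 20 had a higher mean in exposed females, with a median of 0.21, against 5688 of all 10646 genes. The differences of their mean level in numbers 3, 4, 5 and 6 were -0.28, 0.46, 0.06 and 1.16, and the median without number 6 was 0.03. The sodium-activated potassium channel kcnt1 had levels of 1.96, 4.44 and 6.48 (lowest, median, highest) in exposed and 1.01, 3.64 and 4.16 in control females; its difference of 0.95 ± 0.58 was 3.32 in number 6. The fast potassium channel kcnc1a, which is abundant, differed by 0.14 ± 0.07 and by -0.09 in number 6.

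Synapse and calcium signalling genes were higher in 40 of 49 (median 0.14), glutamate receptor and transport genes in 24 of 31 (0.10) and GABA and glycine genes in 15 of 23 (0.13). With the first principal component as a covariate these medians were 0.04, 0.05 and 0.03, and without number 5 they were 0.17, 0.18 and 0.23. In numbers 3, 4, 5 and 6 the mean level of the synapse genes differed by -0.15, 0.29, 0.11 and 0.58. For the glutamate genes these values were -0.06, 0.15, 0.08 and 0.61, and for the GABA and glycine genes -0.16, 0.17, -0.03 and 0.99. The vesicular glutamate transporter slc17a6a differed by 1.31 ± 0.89, and by 4.47 in number 6 and -1.44 in number 3. The AMPA receptor subunits gria4b and gria2a differed by 0.40 ± 0.19 and 0.33 ± 0.23, and the GABA receptor gene gabbr1b by 0.79 ± 0.60. The kinase gene camk2b2 differed by 0.95 ± 0.45 and the adhesion gene nrxn1b by 0.31 ± 0.17. The GABA-synthesising enzyme gad1b, a marker of inhibitory neurons, differed by -0.04 ± 0.10. In a whole brain, fewer cells of a type and less RNA per cell cannot be told apart.

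**Figure D4:**
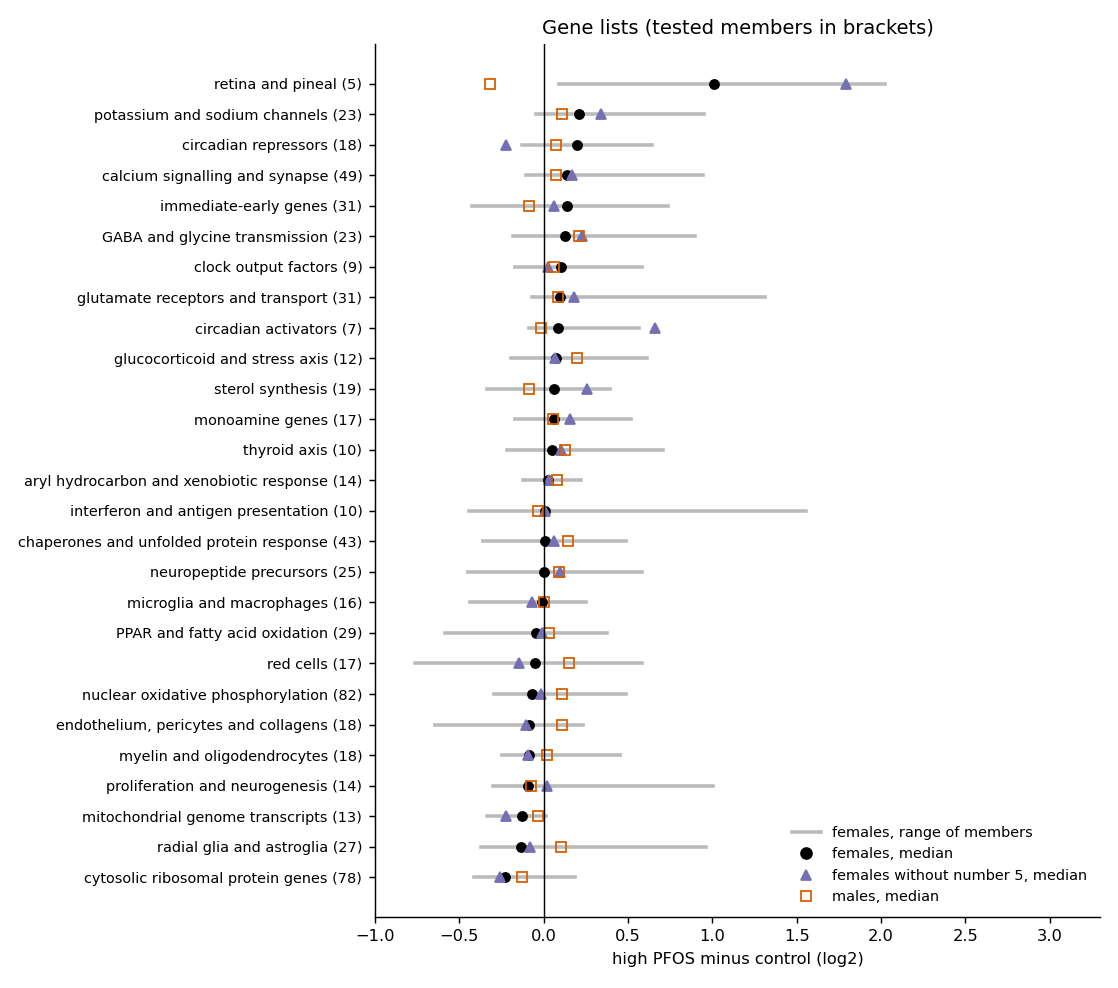
Difference of high PFOS minus control (log2, horizontal axis) for gene lists with at least 5 tested members; grey bars span the members in females, black circles are the female medians, triangles the medians without number 5 and open squares the male medians. The female medians run from -0.23 for ribosomal protein genes to 1.01 for the 5 retina and pineal genes, and both circadian lists change sign or size when number 5 is left out.

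No immediate-early gene passed. Of 31 tested 26 had a higher mean, with a median of 0.14; 0 had an unadjusted p under 0.05. Without number 5, 19 were higher and 12 lower (median 0.06), against 6412 of all 10646 genes higher (median 0.04). In number 3 alone 15 were higher and 16 lower. The activity-dependent factor npas4a was at 5.81, 6.40 and 7.03 (lowest, median, highest) in exposed and at 4.96, 5.73 and 6.56 in control females, a difference of 0.68 ± 0.47. The factor egr1 was at 8.74, 9.02 and 9.13 against 8.34, 8.63 and 9.08, a difference of 0.30 ± 0.17. The nuclear receptor gene nr4a1 differed by 0.74 ± 0.50, egr2a by 0.57 ± 0.33, fosab by 0.23 ± 0.42 and ier2a by 0.32 ± 0.31, while nr4a2a differed by -0.42 ± 0.22. In males 20 of the 31 were lower at the same amount, with a median of -0.09.

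Every PFOS10 female had more npas4a and ier2a than every PFOS70 female, although neither difference passed. Groups did not overlap in this way in 2 of 10646 genes (0.0188%), and both genes had been picked with earlier results known. In PFOS10 females npas4a lay between 7.03 and 8.11 with a median of 7.74, and the highest PFOS70 female was also at 7.03 after rounding, just under the lowest PFOS10 female. The early response gene ier2a lay between 4.99 and 5.62 in PFOS10 and between 3.78 and 4.57 in PFOS70 females. High minus low PFOS was -1.1 ± 0.31 for ier2a and -1.19 ± 0.47 for npas4a (limma adjusted p = 0.999 for each). Against the shared controls ier2a differed by 1.42 in PFOS10 and 0.32 in PFOS70 females, npas4a by 1.88 and 0.68, and egr1 by 0.63 and 0.30. The median over the 31 genes was 0.34 in PFOS10 females.

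**Figure D5:**
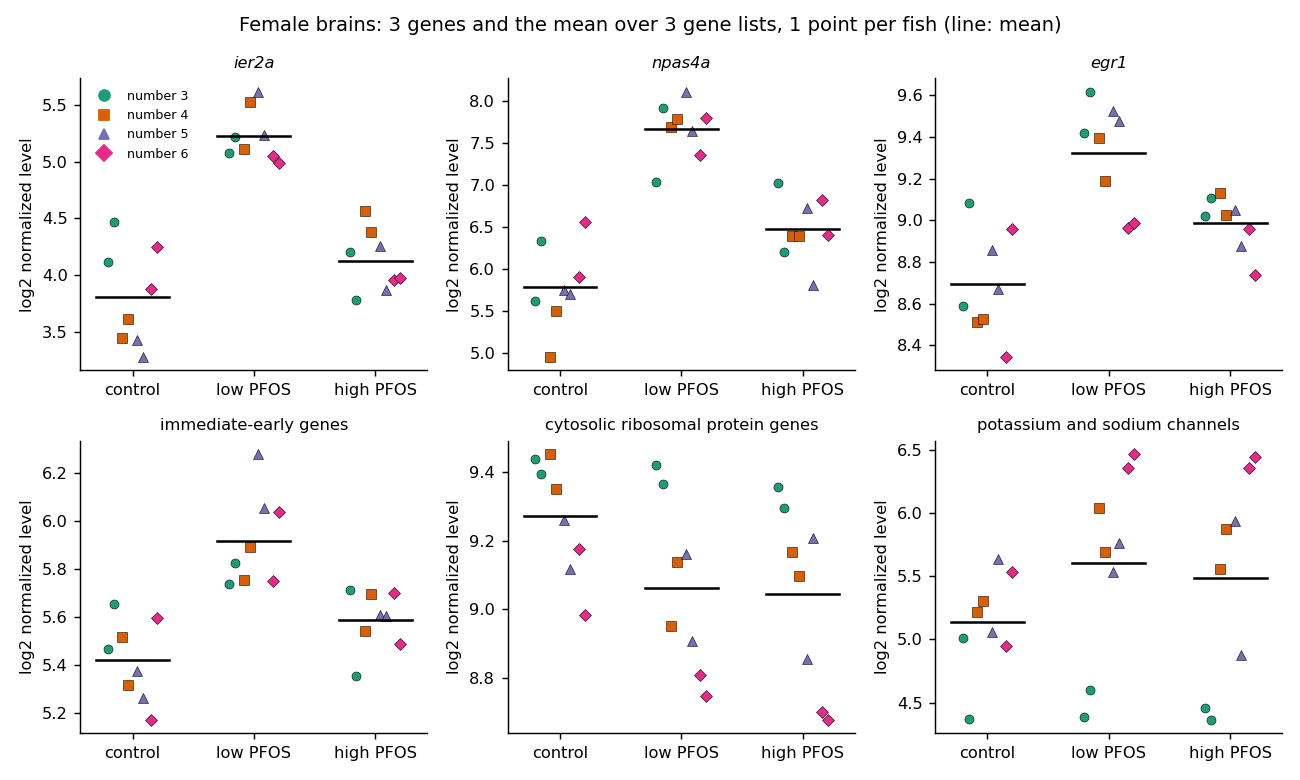
Deposited log2 level (vertical axis) in control, low and high PFOS females of 3 immediate-early genes (top) and mean log2 level over 3 gene lists (bottom); each point is 1 fish, marked by exposure replicate number, and the line is the mean of 8 fish. The low PFOS females have the highest values of ier2a and npas4a, and the points of number 6 have the lowest ribosomal values in high PFOS females (down to 8.68).

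Most glial genes had a lower mean in exposed females, without passing. Of 27 genes of radial glia and astroglia, the stem and support cells of the fish brain, 22 had a lower mean (median -0.13). The differences of their mean level in numbers 3, 4, 5 and 6 were 0.05, -0.29, -0.27 and 0.15. Without number 5, 9 of them were higher and 18 lower (median -0.08), against 6412 of all 10646 genes higher. In males 20 of 27 had a higher mean (median 0.10), against 6519 of all 10646 genes (median 0.04). Of the 27 genes 0 passed for the interaction of exposure and sex. The gap junction gene cx43 was at 9.35, 9.92 and 10.25 (lowest, median, highest) in exposed and at 9.44, 10.26 and 10.58 in control females. Its difference of -0.32 ± 0.14 was 0.27 in number 3 and -0.44, -0.79 and -0.30 in numbers 4, 5 and 6. The BMP target id1 differed by -0.26 ± 0.13, the filament gene vim by -0.25 ± 0.14 and the filament gene gfap by -0.19 ± 0.17. Without 1 control female of number 4, which was at 6.97 for gfap, they differed by -0.21, -0.17 and -0.01. Of 18 myelin and oligodendrocyte genes 14 were lower (median -0.09), with mbpa at -0.24 ± 0.20 and mbpb at -0.21 ± 0.13, both myelin basic protein genes. Of 14 genes of proliferation and neurogenesis 10 were lower (median -0.09), such as hmgb2b at -0.27 ± 0.16. Without number 5, 9 were higher and 5 lower (median 0.02), against 6412 of all 10646 genes higher. The replication helicase gene mcm7 differed by 1.01 ± 0.53 in females and by -1.28 in males, and its interaction of exposure and sex did not pass. Single fish varied widely. Its levels ran from 5.26 to 8.89 in exposed and from 5.04 to 7.94 in control females. In males they ran from 4.42 to 6.9 in exposed and from 4.93 to 8.18 in control fish.

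Matrix and vessel genes had lower means in 11 of 18 (median -0.09). The collagen gene col1a1b differed by -0.64 ± 0.29, the pericyte receptor pdgfrb by -0.24 ± 0.12 and the matrix protein sparc by -0.32 ± 0.13. Without that control female of number 4, pdgfrb stood at -0.13 and sparc at -0.24. The skin keratins krt4 and krt5 differed by -1.02 ± 0.68 and -0.65 ± 0.65; without the control female of number 3 that led the skin markers, krt4 stood at -0.44 and krt5 at -0.19. Microglia and macrophage genes were lower in 9 of 16 (median -0.01), with the myeloid factor spi1b at -0.44 ± 0.24. Interferon and antigen presentation genes were higher in 5 of 10, with stat1a at -0.20 ± 0.13. Red cell genes were lower in 10 of 17 (median -0.05, and -0.15 without number 5), with the haemoglobin gene hbaa1 at -0.48 ± 0.45. Other red cell markers went either way. On the linear scale the hbba1 entries had medians of 423 and 1310 in exposed and 396 and 1055 in control females. The medians were 38.3 and 35.9 for hbba2, 11.5 and 20.1 for hbaa2, and 66.2 and 70.8 for alas2. The summed red cell markers had a median of 2315 in exposed and 2089 in control females.

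Genes of the retina and pineal were high in some fish of both groups and low in others. In number 3 the gene saga was at 5.82 and 5.61 in exposed and at -0.45 and -0.18 in control females. There the gene asmt was at 4.21 and 4.32 in exposed and at 0.66 and -0.99 in control females. In number 5 saga was at -1.23 and 2.94 in exposed and at 6.38 and -0.74 in control females. The genes saga and gnat1 differed by 2.03 ± 1.71 and 1.23 ± 1.62, and by 6.03 and 6.06 in number 3 but -1.96 and -3.77 in number 5. The linear level of gnat1 ran from 0.171 to 114 in exposed and from 0.378 to 103 in control females. The marker rho was at 0 in 8 of the 16 libraries. Its median linear level was 0.112 in exposed and 0.474 in control females. Within number 5 the exposed and control females overlapped for saga and gnat1. The source of these values and the part of such tissue in the clock differences were not tested.

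No tested gene of the hormone, lipid and xenobiotic lists passed. Of 29 genes of PPAR signalling and fatty acid oxidation 19 were lower, with a median of -0.04, and 15 were lower without number 5 (median -0.01). The carnitine transferase cpt1ab, a PPAR target, was at 4.49, 4.82 and 6.01 in exposed and at 4.67, 5.37 and 6.13 in control females and differed by -0.40 ± 0.22. The mitochondrial dehydrogenase acadl of the same pathway differed by -0.21 ± 0.12. Of 19 sterol synthesis genes 15 were higher (median 0.06), with their regulator srebf2 at 0.33 ± 0.21, cyp51 at 0.40 ± 0.26 and the rate-limiting reductase hmgcra at 0.06 ± 0.22; the cholesterol carrier stard4 was at -0.34 ± 0.22. Without number 5, 18 sterol genes were higher and 1 lower (median 0.26), and with the first principal component as a covariate 10 were higher and 9 lower (median 0.01). Of 14 genes of the aryl hydrocarbon and xenobiotic response 9 were higher (median 0.02, and -0.01 after quantile normalization), with tiparp at 0.07 ± 0.12, gstp1 at -0.12 ± 0.14 and the drug pump abcb4 at 0.22 ± 0.23. Of 43 chaperone genes 23 were higher (median 0.01, and -0.02 after quantile normalization), with sdf2l1 at -0.17 ± 0.09 and pdia3 at -0.13 ± 0.10.

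In the thyroid axis 8 of 10 genes were higher (median 0.05); the receptor gene thraa differed by 0.25 ± 0.16 and the hormone-activating deiodinase dio2 by -0.22 ± 0.34. In the stress axis 7 of 12 were higher (median 0.07). The releasing hormone crhb differed by less than 0.01 with an SE of 0.13 (95% interval from -0.25 to 0.25), and the precursor pomca by 0.32 ± 0.41. The glucocorticoid target fkbp5 ranged from 3.54 to 8.72 in exposed and from 3.84 to 7.43 in control females and differed by 0.14 ± 0.91, or by -0.38 without the highest exposed fish. Only 4 sex steroid genes were tested, among them esr1, the oestrogen receptor (-0.05 ± 0.23), and hsd17b3, which makes testosterone (-0.36 ± 0.19, and 0.38 in males).

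Of 17 monoamine genes 11 were higher (median 0.06, and 0.16 without number 5). The dopamine and serotonin enzymes th and tph2 differed by 0.11 ± 0.26 and 0.16 ± 0.49, the noradrenaline transporter slc6a2 by 0.52 ± 0.39 and the serotonin receptor htr1aa by -0.17 ± 0.10. Of 25 neuropeptide precursor genes 12 were higher (median 0.00), or 17 without number 5 (median 0.10), among them the tachykinin gene tac3b at 0.58 ± 0.32, while the opioid precursor penkb was at -0.19 ± 0.14. The mitochondrial carboxylase subunit mccc1 was at 0.20 ± 0.09. None of the tested members of any list passed over all 4 numbers. Of the 37 genes looked at in any case, 30 were tested; cyp1a, the classical dioxin-response enzyme, clocka, esr2a, ttr and pparda were under the level of 10 (means of 0.317, 3.61, 0.865, 0.105 and 0.443), and 2 were not analysed here.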

How the data were processed

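One poly-A library per whole brain was made from 2 µg of RNA with a NEBNext Ultra kit and sequenced as paired 150 bp reads, 20 Mreads planned, per the labels' protocols. Tools named by the submitters' processing notes, without roles, are STAR 2.5.4b and Trim Galore 0.4.5, with DESeq2 and R 3.5.0; the build was GRCz11. How reads were counted, by strand or not, and how libraries were scaled is not given in the sources used here, so reads shared by overlapping or similar genes are uncertain.

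The deposited values are log2 normalized levels, per the file headers, for 23473 entries and 80 libraries. On the linear scale all values checked (those of fewer than 5000 reads) were whole multiples of what 1 read is worth, to a tolerance of 0.02, and a count of 0 stood as 0.9 read. The sum of all linear values was 1.27 to 1.42 times 1000000 per library. Gene symbols and coordinates are the deposited ones; the gene name table held 22752 of 22925 identifiers, and 17 symbols had become dates. No coordinates were taken from the RefSeq table, whose build differs.

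Tested were the 10646 genes whose linear values averaged at least 10 over all 80 libraries. The fit used limma 3.58.1 (R 4.3.3) with 10 group means and a mean-variance trend, and was two-sided, with Benjamini-Hochberg adjustment over all tested genes and a threshold of 0.05. The fish are the replicates, and the 2 fish of a number share an exposure, so p-values measure the spread between fish. Library measures were compared by exact permutation over the 16 fish (4 measures). The fit was checked on simulated data in which all fish were independent. These had no effect of number or exposure replicate, so the check did not test how the fit deals with either. No pair of fish within a group agreed within counting noise (chi-square per degree of freedom at least 15.2).

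The numbers were taken to pair the samples, since the labels give each number 1 age in both groups. Deviations from the group means correlated between same-numbered exposed and control females at 0.558, 0.378, -0.153 and 0.231 for numbers 3, 4, 5 and 6. Between unlike numbers the values ran from -0.553 (exposed 6, control 3) to 0.335 (exposed 4, control 5). Exposed females of numbers 3 and 4 correlated most with their own number. Those of number 5 correlated more with control 6 (0.284), and those of number 6 with control 4 (0.247).

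The members, the 32 gene lists and the 37 genes looked at in any case were chosen with earlier results of these data known. Named genes are from the 12 each way with the smallest unadjusted p, those called with the block or without number 5, the 4 members of each list with the smallest p, and the 37; si:ch211-132b12.7 and znf395b were named after their values were seen, and some genes that the rule names are not reported here. Alternatives were the block, each number left out, the block without number 5, a correlation within exposure replicates, the 16 libraries alone, means per exposure replicate, no filter or a filter at 100, a pseudocount of 1, quantile or median scaling, array weights and limma voom on the recovered reads. After the data were seen, the first principal component as a covariate, the loss of 1 control female of number 3 or of number 4, and 8 refits of the calls without number 5 were added. Mixture-exposed fish entered the fit and are not described here.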

Additional observations from a re-analysis of the deposited data

Results flagged for a closer look

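In 8 of the 216 group values checked, 1 fish stood apart from the other 7 of its group by its gap to the nearest fish relative to the group's range (Dixon's 95% critical value); chance gives about 1 in 20. Of these 7 were control females. In number 3, 1 control female had krt15 at 9.89 (next 5.26) and camk2b2 at 3.66 (next 2.74), and the other had mt-cyb at 14.38 (next 13.86). In number 4, 1 control female had socs3b at 5.74 (next 4.23) and vim at 7.94 (next 7.5). A control female of number 6 had ntrk2a at 3.02 (next 4.1), and 1 of number 5 had stard4 at 5.59 (next 5.98). Among exposed females, 1 of number 3 had fkbp5 at 8.72 (next 5.65).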

How the results depend on the processing

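No gene passed for high PFOS against control in females under 19 of 21 alternatives. The exceptions were 1 gene without number 5 and 6 with the replicate block and number 5 left out; leaving out 1 number at a time gave 0 to 1. For the female minus male difference and for high minus low PFOS the count was 0 under all 18 alternatives of each, the replicate block included (340 and 317 genes at an unadjusted p under 0.05). With number 5 left out, the 6 calls with the replicate block became 1 with no replicate block, 3 with limma voom on recovered reads and 0 with only the 12 females. They became 8 with the first principal component as a covariate, 7 after quantile normalization and 4 with a correlation within exposure replicates. Leaving out a further number gave 0 to 718. The cause was not tested. In males 5 calls became 0 with no replicate block, and 1 and 2 without number 4 or 6.

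Of 108 genes checked, most of them named in the text, 82 kept their direction in every alternative run for all 4 numbers. In this balanced design some alternatives cannot change a difference or its sign. These are the block over all numbers, the correlation within exposure replicates, the 16 libraries alone and the means per exposure replicate. Many of the genes were also picked by their small p in the same fish. Without number 5, with or without the replicate block, the sign turned for several genes. Among them were per1a (-0.54), per1b (-0.36), per2 (-0.27), cry1aa (-0.18), cry2 (-0.16), tefb (-0.20) and nr1d1 (-0.67). Others were ciarta (-0.87), dbpb (-0.47), ddb2 (-0.65), si:ch211-132b12.7 (-0.97), arntl1a (0.48) and nfil3-5 (0.73). Leaving out 1 number at a time, per1a ranged from -0.54 to 1.08, per1b from -0.36 to 0.57, cry1aa from -0.18 to 0.16, nr1d1 from -0.67 to 1.15, ciarta from -0.87 to 0.93, arntl1a from -0.26 to 0.48, dbpb from -0.47 to 0.34, ddb2 from -0.65 to 0.43, si:ch211-132b12.7 from -0.97 to 0.72 and the interferon factor stat1a from -0.29 to 0.019. Each list median moved by less than 1 SD between fish, a wide measure under which a median could still change sign. Among those that did were the medians of circadian repressors (-0.22 to 0.36), circadian activators (-0.14 to 0.66) and matrix and vessel genes (-0.30 to 0.02). Those of ribosomal protein genes (-0.27 to -0.16) and immediate-early genes (0.06 to 0.17) did not. Without number 3 that of the retina and pineal genes was -0.13. Depth gave at least 79.1 reads at the level of 10 that admitted a gene to testing. A paired exact test over the 4 numbers cannot go below p = 0.125.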
